A study of Mus musculus with 78 samples.

Results

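Bckdk, the gene of the branched-chain ketoacid dehydrogenase kinase, was followed with 9 other genes of branched-chain amino acid breakdown in mouse embryonic stem cells that lost the transcription factor ZFP143. Bckdk was chosen by a measured value, its low RNA level 48 h after depletion in the RNA-seq time course. The other 9 genes (Bckdha, Bckdhb, Dbt, Dld, Ppm1k, Bcat1, Bcat2, Ivd and Mccc1) were taken for their place in the pathway, with results of these data already known. All 10 were found among the 55401 genes of each of 3 count tables, and all 10 passed the filter on low counts in each table, which kept 17870, 13925 and 15915 genes. For Bckdk the RNA-seq time course is therefore a description with no test, while the other tables come from other libraries.

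Leucine, isoleucine and valine are first stripped of their amino group by the transaminases Bcat1, in the cytosol, and Bcat2, in mitochondria. The resulting ketoacids are committed to breakdown by the branched-chain ketoacid dehydrogenase of the mitochondrial matrix, which is built from an E1 decarboxylase (Bckdha and Bckdhb), an E2 transacylase (Dbt) and the E3 dehydrogenase Dld that other ketoacid dehydrogenases also use. Bckdk phosphorylates the E1 subunit and switches the complex off, and the phosphatase Ppm1k switches it on. Ivd and Mccc1 act further down, on the leucine branch.

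The cells were E14TG2a, a mouse embryonic stem cell line, in which a degradable FKBP tag with 2 HA epitopes, followed by GFP, had been knocked in at ZFP143. Control and treated cells alike carried it, as homozygous clones. dTAG-V1 at 500 nM removes the tagged protein, and DMSO, the solvent, was the control. TT-seq captures RNA made during a 10 min pulse of 2 mM 4-thiouridine and was done in DMSO and with 2 h, 6 h or 24 h of dTAG-V1. RNA-seq was done in DMSO and with 24 h, 48 h or 72 h of it, in stem cell medium with LIF and inhibitors of MEK and GSK3. In the RA table, cells had 24 h of DMSO or dTAG-V1 and were collected, or then had 24 h of 1 µM retinoic acid (RA) in differentiation medium under the same agent, so that the dTAG-V1 arm with RA had 48 h of depletion. Each group had 2 libraries, 24 in all. No library of medium without RA was used here, so an RA effect below is that of RA, the change of medium and the further 24 h together. In depleted cells those 24 h are also time in depletion. The tag acts on the protein, so the RNA of Zfp143 is no check of the labels. It was higher after dTAG-V1 in all 8 comparisons, by 1.09 to 1.38 on the log2 scale, and past the threshold in each.

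Libraries held from 9721568 to 16532077 counts in TT-seq, from 10261851 to 15316700 in the RNA-seq time course and from 13890761 to 27089033 with RA. The 6 embryonic stem cell markers (Pou5f1, Sox2, Nanog, Klf4, Zfp42 and Esrrb) summed to 2323 to 2725 CPM (counts per 1000000 library counts after TMM scaling) in TT-seq. Over the RNA-seq time course their sum was 4126 to 4200 CPM in DMSO and 2749 to 2771 CPM at 72 h, while with RA it went from 4956 to 5239 CPM in DMSO to 586.6 to 881.1 CPM. The 4 primitive endoderm markers (Gata6, Gata4, Sox17 and Pdgfra) summed to 6.06 to 6.49 CPM in DMSO and 13.0 to 14.0 CPM at 72 h, and in TT-seq to 9.22 to 12.4 CPM in DMSO and 19.2 to 20.4 CPM at 24 h. Over the RNA-seq time course the 4 fibroblast markers (Col1a1, Col1a2, Thy1 and Pdgfrb) went from 3.71 to 4.04 CPM in DMSO to 9.34 to 10.3 CPM at 72 h. The 4 trophoblast markers (Cdx2, Elf5, Krt7 and Tfap2c) went from 177.2 to 177.7 CPM to 89.0 to 90.8 CPM, with up to 2 of these 4 at 0 in a library. Tfap2c made up most of that sum in DMSO, at a mean of 161.4 CPM. The part of these shifts in the results below was not tested. In bulk libraries, fewer cells of a type and less RNA per cell cannot be told apart.

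Of the 10 genes, Bckdk had a ZFP143 peak at its promoter, against 9.89% of 21947 protein-coding genes. The peaks come from 1 list, made with an HA antibody against the tagged protein. The peak, chr7:127903790-127904397 (mm10), spanned the annotated start of Bckdk, which lies on the plus strand at chr7:127904082-127910221, and its summit lay 34 bp upstream of that start. Its fold enrichment over input was 48.14, rank 697 of 3189 peaks, where the median was 20.8. No CTCF peak overlapped it, and Bckdk had no CTCF peak within its promoter window. For the other 9 genes the nearest ZFP143 peak was centred 11007 bp (Bcat2) to 591359 bp (Ppm1k) from a transcript start. The count stayed at 1 gene with peaks of at least 10-fold enrichment and with a peak centre within 500 bp.

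The Bckdk promoter window of RefSeq (GRCm38.p6, chr7:127903823-127904122, plus strand, 250 bases before to 50 after the start) is shown because it holds that summit. Capitals mark matches to ACTACA and to TCCCAG, pieces of the long ZFP143 motif, searched on both strands together with CCCANNATG, whose CCCA can overlap that of TCCCAG.
Bckdk promoter: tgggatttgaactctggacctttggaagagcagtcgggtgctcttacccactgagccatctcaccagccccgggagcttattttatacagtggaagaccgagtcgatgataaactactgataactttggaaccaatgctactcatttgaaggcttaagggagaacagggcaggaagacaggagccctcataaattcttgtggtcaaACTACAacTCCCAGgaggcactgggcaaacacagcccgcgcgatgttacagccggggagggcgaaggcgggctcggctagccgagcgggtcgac
The ACTACA began 44 bases and the TCCCAG 36 bases before the start that RefSeq gives, which lies upstream of the annotated start used for the peak, and 19 and 11 bases before the summit. Both were on the strand of the gene, and CCCANNATG did not occur. Of 32851 RefSeq promoter windows of this length, 10.3% held ACTACA, 31.8% TCCCAG and 5.01% CCCANNATG, while of 3189 windows of 300 bp around ZFP143 summits the shares were 40.1%, 64.3% and 25.7%. RefSeq windows were found for 9 of the 10 genes, Dbt being the exception.

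The promoter of Bcat2, which had no ZFP143 peak, is shown for contrast (GRCm38.p6, chr7:45569903-45570202, plus strand). It held TCCCAG on each strand and no ACTACA. A lack of ACTACA did not mark all unbound members, since 1 of the RefSeq windows of Bckdhb, at chr9:83948531-83948830, held it 225 bases before its start.
Bcat2 promoter: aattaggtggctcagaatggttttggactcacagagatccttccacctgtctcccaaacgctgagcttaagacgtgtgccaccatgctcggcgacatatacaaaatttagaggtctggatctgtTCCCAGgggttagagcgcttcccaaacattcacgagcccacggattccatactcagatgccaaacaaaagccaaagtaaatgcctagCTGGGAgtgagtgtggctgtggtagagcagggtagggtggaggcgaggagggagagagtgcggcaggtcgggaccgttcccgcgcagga

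New transcription of Bckdk was lower by the first time point, 2 h after dTAG-V1. In TT-seq the DMSO libraries held 24.2 and 17.1 CPM of Bckdk, from 234 and 225 counts. With dTAG-V1 they held 3.43 and 2.95 CPM (2 h), 1.87 and 2.81 CPM (6 h) and 2.07 and 1.22 CPM (24 h, from 21 and 16 counts). Every treated library lay below both DMSO libraries, while the libraries of 6 and 24 h overlapped each other. The log2 change was -2.69 (SE 0.32), -3.14 (SE 0.33) and -3.67 (SE 0.35) at the 3 times, which left 15.4%, 11.3% and 7.94% of the DMSO mean. In edgeR's quasi-likelihood test, with Benjamini-Hochberg adjustment over all tested genes, the adjusted p was 0.00349, 0.00204 and 9.51e-04. Without replicate 2 of the 2 h group the adjusted p at 2 h was 0.0564, above the threshold of 0.05, with a log2 change of -2.58 (SE 0.45).

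Bckdk was thus 1 of the 10 genes called lower at each TT-seq time, a call being an adjusted p under 0.05 with a log2 change beyond 0.5. All genes were called lower in 2.43%, 2.83% and 4.09% of cases at the 3 times, and higher in 0.168%, 0.397% and 2.02%. Replicate numbers paired the TT-seq libraries, and with them as a block the genes called lower numbered 662, 956 and 1214 in place of 435, 506 and 730, and those called higher 87, 359 and 1009 in place of 30, 71 and 361. The members called did not change under the block. In rank of log2 change from the lowest, Bckdk stood at 36, 33 and 19 of 17870.

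None of the other 9 genes was called in TT-seq. Their log2 changes ran from -0.12 (Bckdha) to 0.19 (Bcat2) after 2 h, from -0.34 (Bckdha) to 0.38 (Ppm1k) after 6 h and from -0.34 (Bcat2) to 0.55 (Ppm1k) after 24 h, and the smallest adjusted p was 0.244. Ppm1k, the phosphatase that opposes Bckdk, held 9.31 and 8.92 CPM in DMSO and 15.5 and 11.3 CPM at 24 h (SE of the log2 change 0.25, adjusted p = 0.244). Over all tested genes the median log2 change was 0.006, 0.01 and 0.008, and over the 9 genes it was 0.07, 0.04 and 0.05.

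**Figure D1:**
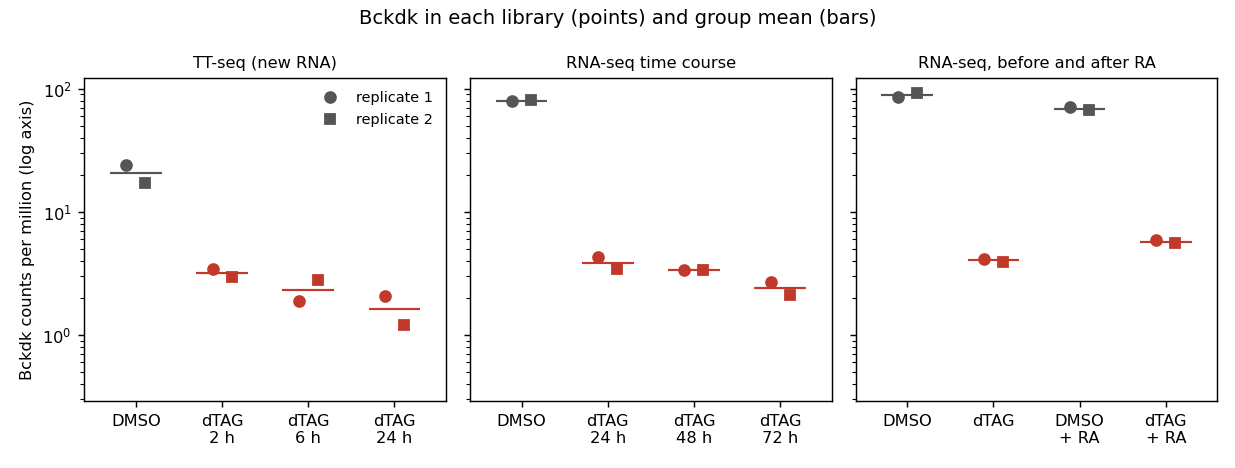
Bckdk in CPM (log axis) in each of 24 libraries, by assay, with the retinoic acid (RA) libraries at the right. Points are libraries, circles replicate 1 and squares replicate 2, short bars are group means, grey is DMSO and red dTAG-V1. Every dTAG-V1 library lies at 5.88 CPM or less, and every DMSO library at 17.1 CPM or more.

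In the RNA-seq time course, which chose it, Bckdk held 79.5 and 80.9 CPM in DMSO. With dTAG-V1 the pairs of libraries held 4.28 and 3.47 CPM (24 h), 3.36 and 3.38 CPM (48 h) and 2.68 and 2.11 CPM (72 h). The treated libraries held 4.83%, 4.2% and 2.99% of the DMSO mean at the 3 times. As a description, the log2 changes were -4.36, -4.57 and -5.08, the 8th, 6th and 11th lowest of 13925 genes.

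The RA table gave the same comparison in other libraries. Before RA, 86.1 and 92.2 CPM in DMSO stood against 4.16 and 3.91 CPM after 24 h of dTAG-V1. The log2 change was -4.47 (SE 0.11), with an adjusted p of 5.85e-17 in edgeR's glmTreat, the test against a 1.5-fold change. It lay 36th from the lowest of 15915 genes. In TT-seq at 24 h, 7.94% of the DMSO mean remained, and in steady-state RNA at 24 h 4.83% in one table and 4.52% in the other. These tables were scaled separately, and the difference between assays was not tested.

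Levels can be set side by side within a table per kb, though their order depends on the annotation. The length used was that of all exons annotated in any transcript of a gene, 10952 bp for Mccc1 and 1899 bp for Bckdha. In DMSO of the RNA-seq time course, per kb of exon, Bcat1 stood highest at 69.6 ± 1.7 CPM (SD, n = 2), followed by Bckdha at 36.5 ± 0.4, Bckdhb at 35.1 ± 0.2, Dld at 31.1 ± 1.6, Bcat2 at 29.8 ± 0.7 and Bckdk at 21.7 ± 0.3. Dbt at 18.0 ± 0.8 and Ivd at 10.4 ± 0.4 came next, and Mccc1 at 2.30 ± 0.26 and Ppm1k at 1.63 ± 0.29 stood lowest. Dld and Bcat2 overlapped between libraries. At 72 h of dTAG-V1 Bckdk stood at 0.65 ± 0.11 CPM per kb, the lowest of the 10 genes, below Ppm1k at 1.67 ± 0.04 and Mccc1 at 4.77 ± 0.28.

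A further 4 members were called in steady-state RNA, at 48 h or 72 h. The DMSO group they were set against has no time in its label and served all 3 times. Time in culture and time in depletion therefore cannot be told apart here. A call here is an adjusted p under 0.01 in glmTreat. At 24 h none of the 9 was called, with log2 changes from -0.23 (Bcat2) to 0.21 (Mccc1). The background was 3.41% of genes called lower and 2.32% higher. At 48 h 1 of the 9 was called, Mccc1, higher, where 7.71% of genes were called lower and 10.5% higher. At 72 h Bckdha, Bckdhb and Bcat2 were called lower and Mccc1 higher, 3 and 1 of 9, where 12% of genes were called lower and 13.7% higher. With libraries scaled by their totals alone, higher calls made up 56.2%, 74.6% and 71.2% of all calls at the 3 times in place of 40.5%, 57.6% and 53.3%, and the median of all genes moved from 0.02 to 0.23 at 72 h.

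Bcat2, the mitochondrial transaminase, held 114.4 and 118.3 CPM in DMSO, then 96.1 and 102.9 (24 h), 89.4 and 82.9 (48 h), and 48.2 and 55.1 CPM (72 h). Each treated library lay below both DMSO libraries. At 72 h the log2 change was -1.16 (SE 0.06), with an adjusted p of 8.08e-10 by glmTreat. An antisense gene, 0610005C13Rik, overlaps 5175 bp of Bcat2.

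The E1 subunits moved in the same direction. Bckdha held 69.9 and 68.8 CPM in DMSO, then 63.1 and 65.0 (24 h), 47.5 and 46.0 (48 h), and 41.3 and 38.3 CPM (72 h). Its log2 change at 72 h was -0.81 (SE 0.07, adjusted p = 0.00125 by glmTreat). Bckdhb held 63.7 and 63.1 CPM in DMSO and 35.2 and 35.5 CPM at 72 h, a log2 change of -0.84 (SE 0.07, adjusted p = 7.05e-04 by glmTreat). Both E1 calls were lost in DESeq2 (adjusted p 0.0697 for Bckdha and 0.0419 for Bckdhb) and with libraries scaled by their totals (log2 -0.59 and -0.62, adjusted p 0.533 and 0.324), and that of Bckdha without replicate 2 at 72 h (adjusted p 0.0375). Bckdha overlaps B3gnt8 on the opposite strand over 5155 bp, and the counting column of the RNA-seq tables is not given in the sources used here.

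The E2 subunit Dbt held 58.4 and 62.2 CPM in DMSO and 49.9 and 48.4 CPM at 72 h (log2 -0.30, SE 0.07, not called). The shared E3 subunit Dld held 110.5 and 118.7 CPM in DMSO and 136.6 and 142.6 CPM at 72 h (log2 0.28, SE 0.05, not called). The treated libraries did not overlap those of DMSO for either gene. Ppm1k was at 0.06 (SE 0.15), Bcat1 at 0.04 (SE 0.04) and Ivd at 0.00 (SE 0.07) on the log2 scale at 72 h.

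Mccc1, a subunit of methylcrotonyl-CoA carboxylase in leucine breakdown, was the member that rose. It held 23.2 and 27.2 CPM in DMSO, then 28.9 and 30.1 (24 h), 48.8 and 52.2 (48 h), and 50.0 and 54.4 CPM (72 h). Its log2 change was 0.99 (SE 0.09) at 48 h and 1.04 (SE 0.08) at 72 h, with adjusted p of 4.29e-05 and 4.39e-06 by glmTreat. In TT-seq, which ended at 24 h, Mccc1 held 52.8 and 58.3 CPM in DMSO and 61.1 and 63.4 CPM at 24 h (log2 0.16, SE 0.13). In DMSO of the RA table before RA, which was scaled separately, Mccc1 held 40.4 and 43.2 CPM. An antisense gene, Gm15952, overlaps 31529 bp of Mccc1.

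**Figure D2:**
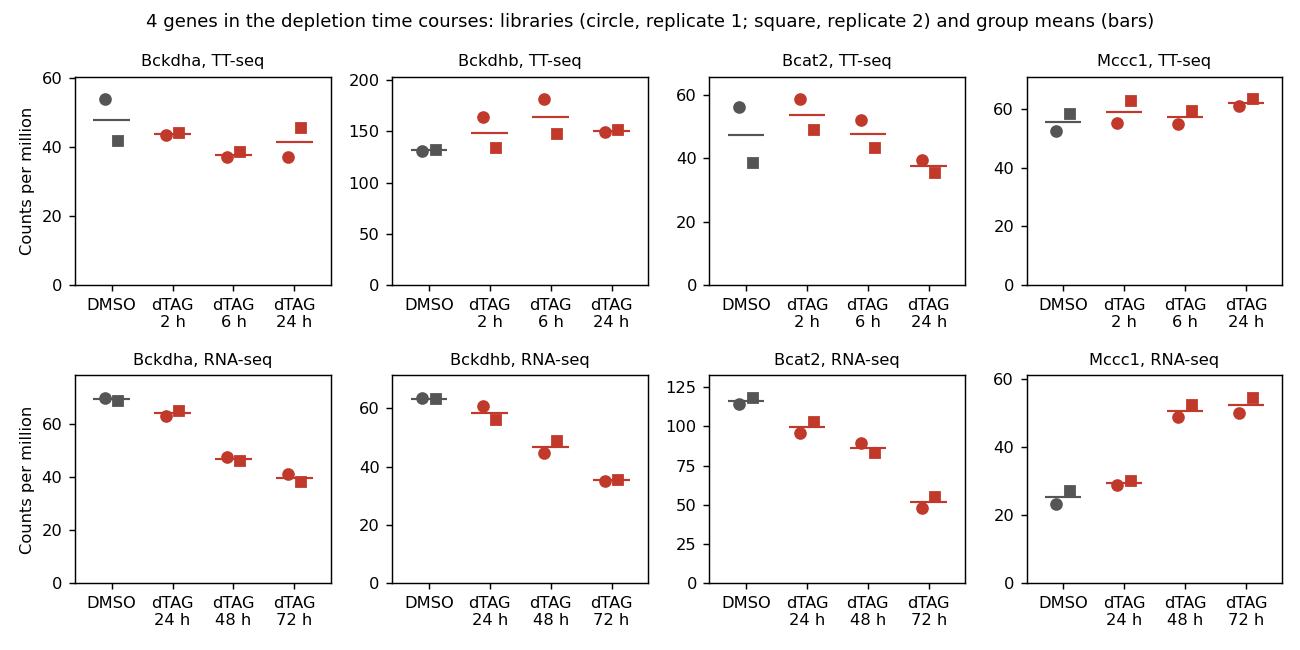
Bckdha, Bckdhb, Bcat2 and Mccc1 in CPM in each library of TT-seq (upper row, 2 to 24 h) and the RNA-seq time course (lower row, 24 to 72 h). Circles are replicate 1, squares replicate 2, bars group means, grey DMSO and red dTAG-V1. In RNA-seq the first 3 genes are lower in both 72 h libraries than in DMSO, from 114.4 and 118.3 to 48.2 and 55.1 CPM for Bcat2, and Mccc1 is higher, with all axes starting at 0.

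After RA, Bckdk stayed low in the depleted cells. With RA it held 70.6 and 67.4 CPM in DMSO and 5.88 and 5.59 CPM after dTAG-V1, a log2 change of -3.59 (SE 0.10, adjusted p = 1.61e-15 by glmTreat), 37th from the lowest. The depleted cells thus held 8.31% of the DMSO mean after RA and 4.52% before it. Bckdk was the 1 member called lower both before and after RA, and no member was called higher, against backgrounds of 3.66% lower and 2.74% higher before RA and 7.36% lower and 9.1% higher after it. By library totals alone, higher calls made up 56.5% and 73.3% of all calls in place of 42.8% and 55.3%, and Bckdha and Mccc1 were then called higher after RA (log2 0.89 and 0.82).

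Among the other 9 genes before RA, the changes after 24 h of dTAG-V1 ran from -0.50 (Bcat2) to 0.42 (Ppm1k). Bcat2 held 139.9 and 157.2 CPM in DMSO and 106 and 104 CPM after dTAG-V1, which did not overlap (SE 0.09). It missed the 1.5-fold threshold (adjusted p = 1 by glmTreat) but passed the quasi-likelihood test for any change (adjusted p = 1.55e-04). After RA they ran from -0.22 (Bckdhb) to 0.68 (Bckdha).

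RA itself was followed by lower RNA of several genes of the pathway in DMSO. Bckdha, Bckdhb, Bcat1 and Bcat2 were called lower and Ppm1k higher, 4 and 1 of 10, where 18.1% of all genes were called lower and 25.8% higher. In depleted cells Bckdhb and Bcat1 were called lower and none higher, 2 and 0 of 10, where 18.5% were called lower and 25% higher. With libraries scaled by their totals, the median of all genes moved from 0.03 to 0.35 in DMSO and from 0.00 to 0.39 in depleted cells, and higher calls made up 75.1% and 78.2% of calls in place of 58.8% and 57.5%.

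Bcat1, the cytosolic transaminase, held 1107 and 1264 CPM in DMSO and 259.9 and 217.9 CPM after RA, and 1162 and 1207 CPM and then 292.5 and 285 CPM in depleted cells. Its log2 change with RA was -2.31 (SE 0.09, adjusted p = 3.64e-14 by glmTreat) in DMSO and -2.04 (SE 0.09, adjusted p = 4.18e-13 by glmTreat) in depleted cells. The difference of 0.27 (SE 0.12) between these missed the threshold (adjusted p = 0.0686 by the quasi-likelihood test).

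Bckdha, an E1 subunit, was called lower with RA in DMSO (log2 -0.90, adjusted p = 0.00293 by glmTreat). That call was lost without replicate 2 of DMSO (0.1) and without replicate 2 of DMSO with RA (0.148), in DESeq2 (0.0256) and by library totals (0.428). Bckdhb fell with RA by 0.83 (SE 0.08) in DMSO and by 0.78 (SE 0.08) in depleted cells on the log2 scale. The glmTreat adjusted p were 0.00233 and 0.00942. With RLE size factors (0.0265) or the replicate block (0.0119) the second was above 0.01. The first was lost without replicate 2 of DMSO (0.0198) or either library of DMSO with RA (0.0102 and 0.0616), in DESeq2 (0.031) and by library totals (0.847). The second was lost without replicate 1 of dTAG-V1 (0.0625) or either library of dTAG-V1 with RA (0.159 and 0.0997), in DESeq2 (0.312) and by library totals (log2 -0.38, adjusted p 1). Ppm1k held 6.19 and 5.90 CPM in DMSO and 15.7 and 11.2 CPM after RA, a log2 change of 1.17 (SE 0.17, adjusted p = 5.32e-04 by glmTreat), a call lost without replicate 1 of DMSO with RA (0.0216) and in DESeq2 (0.0187). In depleted cells it held 7.38 and 8.69 CPM before RA and 12.9 and 13.9 CPM after it, which did not pass the threshold (log2 0.73, SE 0.15, adjusted p = 0.12 by glmTreat). By library totals alone it did, as did Bckdk (log2 1.12 and 0.90, adjusted p 6.5e-04 and 0.00913). A gene on the opposite strand, Gm45193, overlaps all 28967 bp of Ppm1k.

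The RA effect differed between depleted and control cells for Bckdk, Bckdha and Bcat2, which were called higher for the difference itself by the quasi-likelihood test. None was called lower, and the background was 13.7% of genes higher and 18% lower. For Bckdk the RA effect was -0.37 (SE 0.08) in DMSO and 0.51 (SE 0.14) in depleted cells, a difference of 0.88 (SE 0.16, adjusted p = 1.84e-04). Over the other settings, omissions of a library aside, the effect ran from -0.39 to -0.05 in DMSO and from 0.43 to 0.90 in depleted cells. Depleted cells held 4.16 and 3.91 CPM of Bckdk before RA and 5.88 and 5.59 CPM after it, from 80 and 98 counts and 121 and 120 counts. Bckdha held 79.1 and 103.9 CPM in DMSO and 54.5 and 42.4 CPM after RA, but 83.5 and 81.1 CPM and then 82.6 and 73.8 CPM in depleted cells. Its RA effect was -0.90 (SE 0.11) in DMSO and -0.07 (SE 0.11) in depleted cells, a difference of 0.83 (SE 0.16, adjusted p = 2.52e-04). Bcat2 fell by 1.48 (SE 0.10) in DMSO on the log2 scale and was at -0.73 (SE 0.09) in depleted cells, a difference of 0.74 (SE 0.13, adjusted p = 1.24e-04). When the difference was tested against 1.5-fold at an adjusted p under 0.01, none of the 3 passed (0.0783, 0.118 and 0.197). The 6 stem cell markers summed to 586.6 to 881.1 CPM in DMSO with RA and 1048 to 1264 CPM in depleted cells with RA. In the same groups the 4 endoderm markers summed to 25.6 to 27.6 and 48.6 to 51.6 CPM, and the 4 fibroblast markers to 24.6 to 30.2 and 58.4 to 60.1 CPM. The part of these shifts in the differences was not tested. Depletion had lasted 24 h before RA and 48 h with it, so RA and longer depletion cannot be told apart in these differences.

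**Figure D3:**
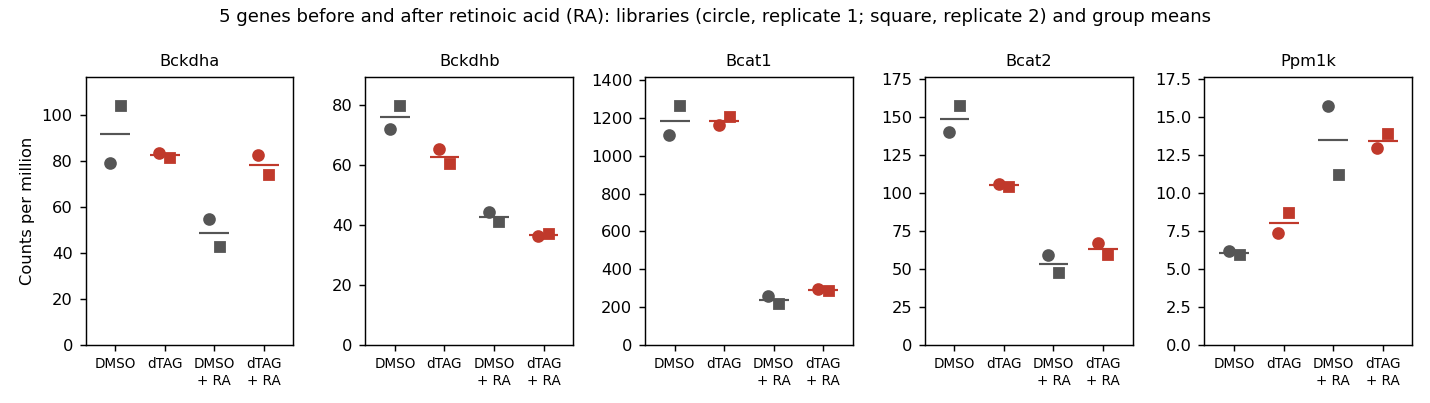
Bckdha, Bckdhb, Bcat1, Bcat2 and Ppm1k in CPM in each of 8 libraries before and after retinoic acid (RA). Circles are replicate 1, squares replicate 2, bars group means, grey DMSO and red dTAG-V1, and all axes start at 0. Bcat1 drops with RA under either agent, from 1107 and 1264 to 259.9 and 217.9 CPM in DMSO, while Bckdha drops from 79.1 and 103.9 to 54.5 and 42.4 CPM in DMSO and overlaps between depleted libraries.

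**Figure D4:**
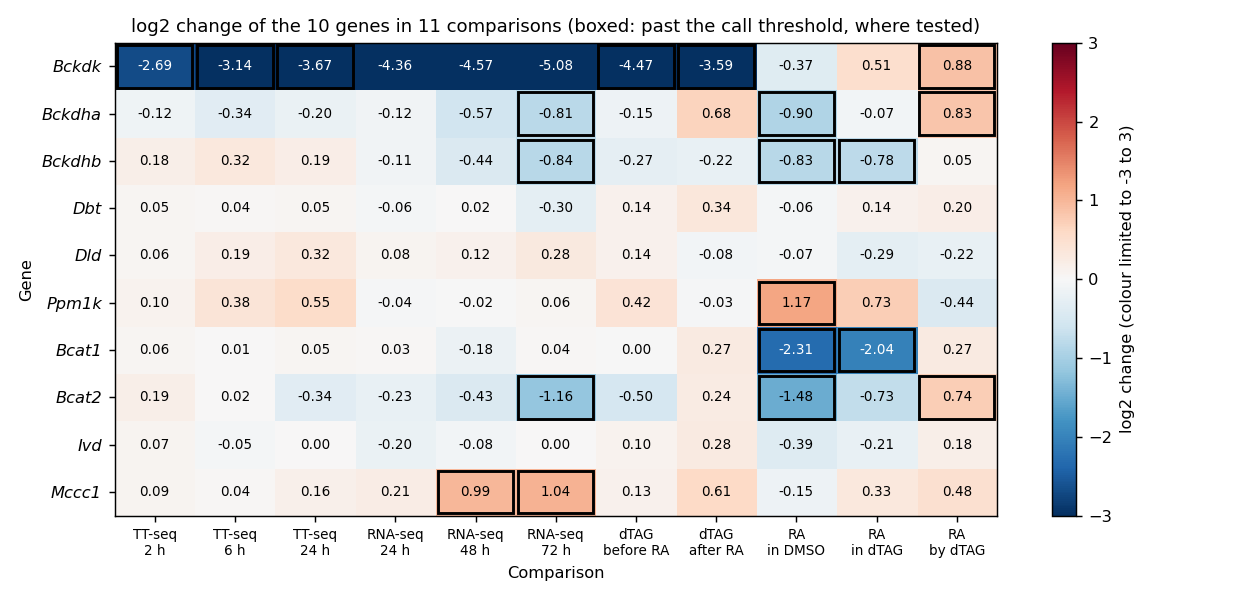
log2 change of each of the 10 genes (rows) in 11 comparisons (columns), 8 of dTAG-V1 against DMSO, 2 of RA and 1 of the difference between the RA effects. Colour is limited to 3 in either direction, and boxes mark calls, which are not given for Bckdk in the RNA-seq time course. The row of Bckdk runs from -2.69 to -5.08 in the comparisons of dTAG-V1 with DMSO, and no other row passes -1.16 there.

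Further down the pathway, 1 of 15 genes of the later steps was called lower in each TT-seq comparison, where 2.43%, 2.83% and 4.09% of all genes were. It was Acad8, the isobutyryl-CoA dehydrogenase of valine breakdown, which was also called lower in the 5 RNA-seq comparisons of dTAG-V1. In TT-seq it held 32.6 and 30.0 CPM in DMSO, 8.53 and 7.59 CPM at 2 h and 12.3 and 7.90 CPM at 24 h. In RNA-seq it held 30.9 and 34.1 CPM in DMSO and 11.3 and 10.5 CPM at 72 h. Its log2 change was -1.96 (SE 0.23, adjusted p = 0.00349 by the quasi-likelihood test) at 2 h of TT-seq and -1.59 (SE 0.11) at 72 h of RNA-seq. The treated libraries lay below those of DMSO throughout. Without 1 library the TT-seq call was lost at 2 h (adjusted p 0.0564, replicate 2 of that group) and at 6 h (0.0522, 0.0904 and 0.113, replicate 1 of DMSO and each 6 h library). Acad8 was the one gene of this list with a ZFP143 peak, of 115.31-fold enrichment, rank 76, at a start region shared with Thyn1.

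The other later steps moved late or not past the threshold. Hsd17b10, which acts in isoleucine breakdown, was called lower at 72 h (96.5 and 97.5 CPM in DMSO, 52.5 and 51.3 CPM at 72 h, log2 -0.90, SE 0.06, adjusted p = 5.74e-06 by glmTreat), a call lost by library totals alone (log2 -0.69, adjusted p 0.0522). After RA, Acat1 was also called lower (log2 -0.90, SE 0.08) and Acadsb higher (log2 0.85, SE 0.08) with dTAG-V1, calls that DESeq2 did not make at 0.01 (adjusted p 0.0369 and 0.0427). With Acad8, 2 of 15 were called lower at 72 h and 0 higher, where 12% of all genes were called lower and 13.7% higher. After RA 2 of 15 were called lower and 1 higher, where 7.36% and 9.1% of all genes were. The median log2 change of the 15 genes was -0.30 at 72 h and -0.08 after RA, beside 0.02 and 0.00 over all genes.

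Of 5 genes of branched-chain amino acid transport none was called in TT-seq or at 24 h of RNA-seq. At 48 h Slc3a2 and Slc7a8, partner subunits of a plasma membrane exchanger, were called higher, and at 72 h Slc7a8 and Slc25a44, the mitochondrial branched-chain amino acid carrier. That was 2 of 5 at each time, where 10.5% and 13.7% of all genes were called higher. The 48 h call of Slc7a8 was lost in DESeq2 (adjusted p 0.0203). Slc7a8 rose from a low level, 0.367 and 0.499 CPM (4 and 7 counts) in DMSO to 6.85 and 6.00 CPM at 72 h (log2 3.82, SE 0.32), and it was called higher after RA as well (log2 1.97, SE 0.15). Slc25a44 held 37.6 and 36.9 CPM in DMSO and 74.4 and 73.4 CPM at 72 h (log2 0.99, SE 0.07). Slc3a2 held 456.5 and 446.3 CPM in DMSO and 742.6 and 720.7 CPM at 48 h (log2 0.70, SE 0.04, adjusted p = 0.00505 by glmTreat), a call lost in DESeq2 (0.101), with no filter on low counts (0.0987), without replicate 2 of DMSO (0.0337) and without replicate 1 at 48 h (0.0572). Slc3a2 had a ZFP143 peak shared with Snhg1. The median of the 5 was 0.70 at 48 h and 0.53 at 72 h, beside 0.01 and 0.02 over all genes.

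The sister complexes served as a comparison. Of 7 subunits of the pyruvate, oxoglutarate and oxoadipate dehydrogenases, none was called in the 7 comparisons of dTAG-V1 in stem cells, with log2 changes between -0.46 and 0.28, where up to 12% of all genes were called lower and 13.7% higher. After RA Pdha1 was called lower (-0.83, SE 0.07) and Dhtkd1 higher (0.81, SE 0.08), 1 of 7 each, where 7.36% of all genes were called lower and 9.1% higher. Of the 7 kinases and phosphatases of pyruvate dehydrogenase, the relatives of Bckdk and Ppm1k in role, none was called in stem cells, and Pdk3 was called lower after RA (-1.36, SE 0.10). The calls of Pdha1 and Dhtkd1 were not made in DESeq2 (adjusted p 0.0317 and 0.078). At 72 h the medians of these lists were 0.10 and -0.21, beside 0.02 over all genes. None of these 14 genes had a ZFP143 peak at its promoter.

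Among protein-coding genes that start within 100 kb of Bckdk on chromosome 7, Stx4a, Vkorc1 and Pycard had a ZFP143 peak. Pycard, an inflammasome adaptor whose start lies 89785 bp away, was called lower in all 8 comparisons. It held 39.1 and 38.5 CPM in DMSO and 1.70 and 1.37 CPM at 24 h in the RNA-seq time course (log2 -4.64, SE 0.17). Its call at 6 h of TT-seq was lost without either 6 h library (adjusted p 0.0713 and 0.0827). Vkorc1, the vitamin K epoxide reductase, starts 8465 bp upstream on the other strand. It was called lower in the RA table (log2 -1.94, SE 0.35, before RA and -1.78, SE 0.37, after it), where it had 10 and 14 counts against 33 and 43 before RA. These calls were lost in DESeq2 (adjusted p 0.158 and 0.237) and without single libraries (up to 0.0417 and 0.085). Kat8, a histone acetyltransferase that starts 8434 bp downstream, was called in none, with 38.8 and 41.5 CPM in DMSO and 34.8 and 43.0 CPM at 2 h of TT-seq (log2 -0.05). Stx4a was called in none either. Among neighbours with no ZFP143 peak, Prss8 was called lower before RA (log2 -1.33, SE 0.17), Prss36 lower at 72 h (log2 -1.14, SE 0.16) and Trim72 higher after RA (log2 1.46, SE 0.27). These calls were not made in DESeq2 (adjusted p 0.0179, 0.0772 and 0.326), and those of Prss8 and Trim72 were also lost without single libraries (up to 0.0216 and 0.0344).

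**Figure D5:**
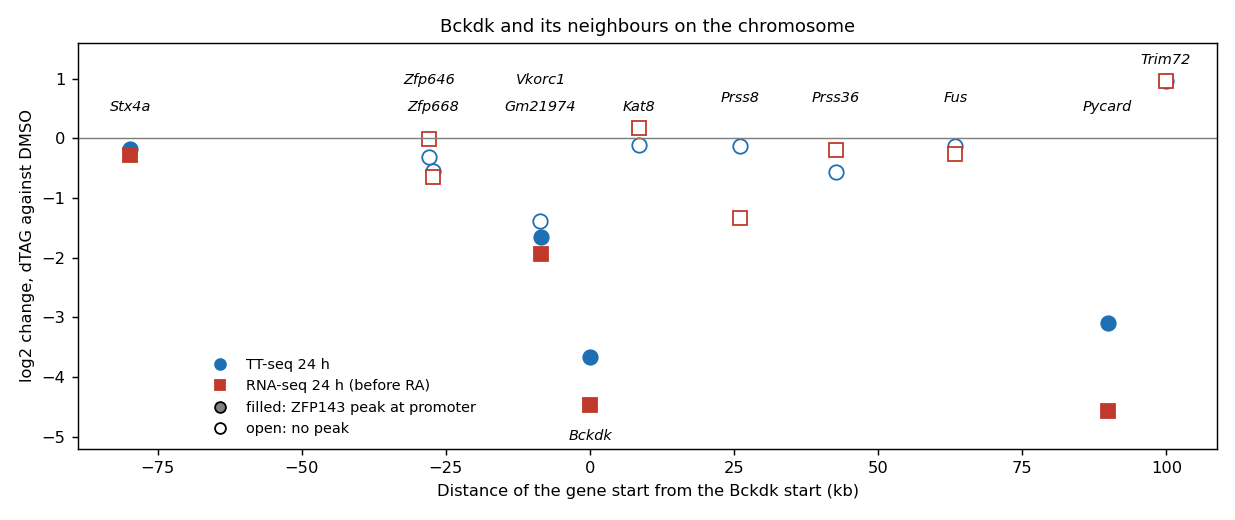
log2 change after 24 h of dTAG-V1 (vertical axis) against the distance of each gene's start from that of Bckdk in kb (horizontal axis), for tested protein-coding genes within 100 kb that are reported here. Circles are TT-seq, squares RNA-seq before RA, and filled symbols have a ZFP143 peak at the promoter. Bckdk and Pycard lie lowest, at -3.67 and -3.09 in TT-seq, while Kat8, 8434 bp away, lies at -0.12.

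Genes with a like profile were sought by the Euclidean distance between log2 changes in the 8 comparisons of dTAG-V1, among 8828 genes with a mean of at least 100 counts in each table. The 5 nearest were Ifrd2 (distance 1.70), 4933404O12Rik (2.19), Lhpp (2.26), Ube2d1 (2.31) and Lmnb2 (2.36), where the median gene lay at 11.3. Ifrd2 ran from -2.64 at 2 h of TT-seq to -5.06 before RA, and Lhpp from -2.85 to -5.45 at 72 h of RNA-seq. All 5 had a ZFP143 peak at the promoter, with enrichment from 26.15-fold (Lhpp) to 139.52-fold (Ifrd2). As these genes were picked on the same measure, their changes are a description.

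Windows of 80 bases around the summits, read on the strand of the gene from GRCm38.p6, are shown for Bckdk, the bound pathway genes, Vkorc1 and all 5 nearest profiles to let their motifs be compared. Capitals mark the same motif pieces on either strand.
Bckdk, chr7:127904008-127904087: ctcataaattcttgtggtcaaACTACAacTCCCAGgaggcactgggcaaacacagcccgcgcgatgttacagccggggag
Acad8, chr9:26999569-26999648: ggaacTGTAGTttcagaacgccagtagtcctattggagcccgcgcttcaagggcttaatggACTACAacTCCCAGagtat
Slc3a2, chr19:8723376-8723455: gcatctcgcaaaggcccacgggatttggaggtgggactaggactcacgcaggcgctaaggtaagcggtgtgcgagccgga
Vkorc1, chr7:127895747-127895826: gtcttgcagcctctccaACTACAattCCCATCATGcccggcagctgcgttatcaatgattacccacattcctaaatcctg
Ifrd2, chr9:107587586-107587665: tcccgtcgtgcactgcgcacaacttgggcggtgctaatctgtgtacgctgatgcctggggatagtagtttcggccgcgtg
4933404O12Rik, chr5:136919058-136919137: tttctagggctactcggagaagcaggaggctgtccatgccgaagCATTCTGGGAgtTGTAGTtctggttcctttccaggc
Lhpp, chr7:132610591-132610670: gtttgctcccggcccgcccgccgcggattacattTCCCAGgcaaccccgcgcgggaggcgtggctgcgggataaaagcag
Ube2d1, chr10:71285264-71285343: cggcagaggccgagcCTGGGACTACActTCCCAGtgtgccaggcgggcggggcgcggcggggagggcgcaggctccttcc
Lmnb2, chr10:80918256-80918335: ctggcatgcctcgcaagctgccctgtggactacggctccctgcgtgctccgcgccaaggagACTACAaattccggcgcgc
Of the windows around all summits, 31.5% held ACTACA, 47% TCCCAG and 20% CCCANNATG. The longest run of letters that Bckdk shared was 14 bases with Acad8, on the same strand, and 15 bases with 4933404O12Rik, on the opposite strand. In both it spanned ACTACA and TCCCAG. The windows of Slc3a2 and of Ifrd2, the nearest profile, held none of the 3 pieces. The Lhpp window held no ACTACA, and those of Lmnb2 and Vkorc1 held no TCCCAG.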

How the data were processed

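TT-seq and RNA-seq counts per gene were deposited by the authors as raw counts in 3 tables of 8 libraries, 4 groups of 2 biological replicates each. Reads had been aligned with STAR to mm10 with GENCODE annotation and counted with HTSeq (TT-seq, after removal of duplicates with Picard) or by STAR itself (RNA-seq). The strand column taken from STAR is not given in the sources used here, so reads of a gene and an overlapping gene on the other strand may not be separated. ZFP143 peaks were deposited by the authors as 1 list from BWA and MACS2 with input as control, holding a fold enrichment ratio and -log10 p and q values, and CTCF peaks as positions. The authors' peak calls were used as they stood.

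Each table was fitted on its own in R 4.3.3 with edgeR 4.0.16 (limma 3.58.1), with TMM scaling and genes of more than 10 counts in at least 4 libraries. TT-seq and the difference between RA effects used the quasi-likelihood test (adjusted p under 0.05, log2 change beyond 0.5), and RNA-seq used glmTreat against 1.5-fold (adjusted p under 0.01), all with Benjamini-Hochberg adjustment over all tested genes. P-values measure the spread between 2 libraries a group. CPM is the count per 1000000 counts of the library after TMM scaling, with the library total taken over genes that passed the filter. A gene had a peak at its promoter where a peak overlapped 2000 bp before to 1000 bp after a transcript start with its centre within 2000 bp. The fit was also run on simulated counts with the same spread for all genes and no pairing of libraries. That setting is simpler than these data, and its outcome is not given here. Members and gene lists were chosen with earlier results of these data known. Named genes were all members, Zfp143, list genes called in any comparison of dTAG-V1 with DMSO, tested protein-coding genes starting within 100 kb of Bckdk, and the 5 nearest profiles.

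In TT-seq, samples of the same replicate number deviated together (correlation 0.214 to 0.667 over 6 pairs), so the numbers pair them, as a check on the data and not from the labels. Alternatives were DESeq2 1.42.0, RLE size factors, library size alone, no filter on low counts, the other threshold, the replicate block and leaving out each library. The authors' other assays in this series were not used here. Results on 1 further gene near Bckdk and on 1 marker list are not reported here.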

Additional observations from a re-analysis of the deposited data

Results flagged for a closer look

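The effect of RA differed between depleted and control cells for 3 of the 10 genes, by a test of the difference itself (edgeR's quasi-likelihood test, adjusted over all genes). The difference in log2 change, depleted minus DMSO, was 0.879 for Bckdk, 0.83 for Bckdha and 0.744 for Bcat2, with adjusted p of 1.84e-04, 2.52e-04 and 1.24e-04. At 1.5-fold and an adjusted p under 0.01 none of the 3 passed. The share of all genes called was 13.7% higher and 18% lower. Depletion had lasted 24 h before RA and 48 h with it, so RA and longer depletion cannot be told apart here.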

How the results depend on the processing

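With 2 libraries a group, leaving out 1 library decided several calls. In TT-seq at 2 h the members called ran from 0 to 1 over single omissions, and the Bckdk log2 change from -2.907 to -2.432. At 72 h of RNA-seq, 3 members passed the threshold in DESeq2 and 3 by library size alone, in place of 5, counts that include Bckdk, which has no test there. For dTAG-V1 before RA the other threshold called 2 in place of 1, and after RA library size alone and the other threshold each called 3 in place of 1. For RA in DMSO, DESeq2 called 2 and library size alone 3, and single omissions 3 to 5, in place of 5. For RA in depleted cells, DESeq2, RLE size factors and the replicate block each called 1, the other threshold 5 and single omissions 1 to 2, in place of 2. Library size alone called 3 (Bckdk and Ppm1k gained, Bckdhb lost), as did no filter on low counts (Bcat2 gained, log2 -0.812, adjusted p 0.00272). For the difference between RA effects the other threshold called 0 in place of 3, with Bckdk at 0.879 (adjusted p 0.0783). The cause was not tested. No result reversed. In description, the Bckdk log2 change at 48 h of RNA-seq ran from -4.608 to -4.369.

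Replicate numbers did not pair the RNA-seq libraries (correlation -0.0558 to 0.0575) or those with RA (-0.175 to 0.192). With the replicate block, the Bckdhb call for RA in depleted cells was lost (adjusted p 0.0119), and no other call of the 10 genes changed. Counts over all genes moved further: genes called lower at 2 h of TT-seq ran from 70 to 774 over alternatives and 102 to 290 over single omissions, against 435, and those higher at 24 h from 12 to 1025, against 361. Counts of 16 and 21 for Bckdk at 24 h of TT-seq limit that value.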
